A study of Homo sapiens with 6 samples.

Results

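Solute carriers are membrane proteins that move small molecules such as sugars, ions, metals, nucleosides and vitamins across membranes. The carriers described here are the genes measured on the HG-U133A array whose symbol starts with SLC and a number. A probe set was used if it was annotated to a single gene. The amino acid carrier families SLC1, SLC3, SLC7, SLC38 and SLC43 were left out, and so were SLC11A1, SLC17A5 and SLC40A1. Amino acid carriers of other families, such as SLC6A9 and SLC16A10, stayed in. This gave 207 genes with 306 probe sets, out of 11963 genes with a probe set of their own. Of these genes, 143 had 1 probe set and the most for 1 gene was 7. Among the 207, 5 have an SLC symbol but do not encode carriers, and they are counted with the carriers.

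The cells were HL60, a human promyelocytic leukemia line that was grown for 5 days with 1 µM tretinoin (all-trans retinoic acid) in 0.1% DMSO or with 0.1% DMSO alone. Both groups therefore carried the same vehicle and differed in the retinoid. There were 3 DMSO arrays and 3 tretinoin arrays. Per the study's methods, amplified RNA was pooled and the pool of each condition was hybridized in parallel to its 3 arrays, so that the p-values measure the spread between hybridizations of 2 pools and not between cultures.

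HL60 cells stop dividing and mature along the neutrophil line when given tretinoin, which binds the retinoic acid receptors. Carriers of the plasma membrane feed cells with sugars, bases, vitamins and ions, those of lysosomes and the Golgi apparatus move breakdown products and nucleotide sugars, and the SLC25 family carries metabolites across the inner mitochondrial membrane. A growing cell draws folate, thiamine and nucleosides through such carriers for DNA synthesis, and a phagocyte recovers nucleosides, peptides and metals from what it digests.

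The deposited mean signal of an array ranged from 91.3 to 151.8, and each array was scaled to the mean of DMSO replicate 1 with factors between 0.820 and 1.36. After scaling, 54.9 to 60.1% of probe sets exceeded the floor of 20 signal units, to which lower values were set. Arrays were correlated over the 13374 probe sets that exceeded the floor on at least 3 arrays. The correlation was 0.957 to 0.975 within a condition and 0.850 to 0.862 between conditions. The ratio of 3′ to 5′ probe sets of ACTB was 1.38 to 1.42 in DMSO and 1.14 to 1.17 in tretinoin, and that of GAPDH was 1.06 to 1.19 over both. The ACTB ratio moved with the treatment, and its part in the results was not tested. Of 7 listed genes of promyelocytic leukemia cells, 6 were named on the array and all 6 were lower with tretinoin, with a summed signal of 3951 to 4132 in DMSO and 369 to 394 in tretinoin. All 6 genes listed for retinoid-treated myeloid cells were higher, with sums of 476 to 526 and 3209.5 to 3759.5. The 3 monocyte genes CD14, CSF1R and ADGRE1 were also higher, with sums of 118 to 121 and 534.5 to 605, and their part in the carrier results was not tested. Of the genes listed for eosinophils 3 were tested, with 1 higher (CLC) and 1 lower (PRG2), and of the 6 tested for T cells, B cells, erythroid cells and fibroblasts 0 were called. The 3 epithelial genes were at the floor on all 6 arrays. In bulk RNA, fewer cells of a type and less RNA per cell cannot be told apart.

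Tretinoin raised carriers of fructose (SLC2A5, 4.995-fold), of nucleosides and peptides in lysosomes (SLC29A3, at least 3.97-fold, and SLC15A3, at least 3.48-fold) and of zinc out of the cell (SLC30A1, 3.04-fold). It lowered a carrier of zinc, iron and manganese into the cell (SLC39A14, at least 6.05-fold), a fatty acid carrier (SLC27A2, at least 3.73-fold) and the mitochondrial carriers of ornithine (SLC25A15, at least 3.75-fold) and dicarboxylates (SLC25A10, at least 3.21-fold). Of the 207 carrier genes, 132 were tested, meaning that the brightest probe set of the gene exceeded the floor on at least 3 arrays. The other 75 did not meet this, and 52 of them were at the floor on all 6 arrays. None of those 75 exceeded 53.9 on any array, and 2 of them, SLC6A8 and SLC12A4, had a dimmer probe set that was tested. SLC25A15 and SLC27A2 passed this filter through the 3 DMSO arrays alone, and their floored tretinoin arrays add no spread to the test. With tretinoin 15 of the 132 genes were higher and 22 were lower, counting genes whose fitted change reached 1.5-fold with an adjusted p (limma, Benjamini-Hochberg) under 0.05. The 132 include 4 genes that do not encode carriers, of which 1 was lower. Over all 8156 genes tested, 13.5% were called higher and 14.3% lower, against 11.4% and 16.7% of the carriers. In either direction 28.03% of the carriers and 27.8% of all genes were called, so that the share of carriers called was close to the background. The median log2 change was -0.06 over the carriers and -0.04 over all genes. In each of the 37 called genes the 3 arrays of one condition lay wholly above those of the other, which held for 19 of the tested carriers upward and 33 downward. Such separation was found for 21.6% of all genes upward and 24.7% downward. The 95 genes that were not called had log2 changes between -0.83 and 0.69, and 3 of these (SLC22A14, SLC25A36 and SLC48A1) had an adjusted p under 0.05 but a change under 1.5-fold.

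**Figure D1:**
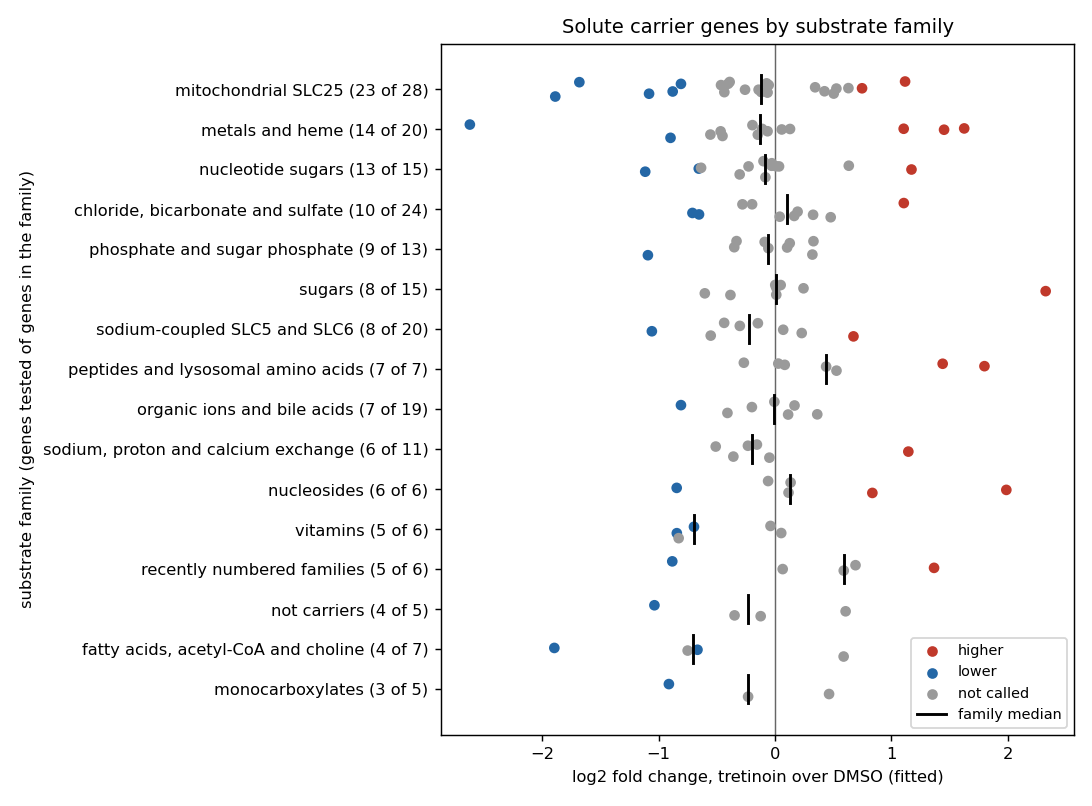
Fitted log2 change with tretinoin of each tested solute carrier gene by substrate family, from 3 DMSO and 3 tretinoin arrays. Points are coloured by whether the gene was higher, lower or not called, and a line marks the family median. The SLC25 family has the most tested genes (23, of which 2 were higher and 5 lower), and the 14 metal and heme carriers hold 3 higher and 2 lower.

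Of the sugar carriers, the fructose carrier SLC2A5 rose and the glucose carriers SLC2A1 and SLC2A3 did not pass the test. SLC2A5 read 100.4, 78.6 and 79.2 on the DMSO arrays and 475, 393 and 421 on the tretinoin arrays. The treated arrays lay far above the untreated ones. The mean signal was 4.995-fold higher with tretinoin (log2 change 2.33, SE 0.154, adjusted p = 9.45e-05). A second SLC2A5 probe set rose as well, by 8.19-fold (adjusted p = 0.000209). SLC2A5 was the 1 gene called among 8 tested of 15 sugar carriers. SLC2A1, the glucose carrier of most dividing cells, read 134, 147 and 115 on the DMSO arrays and 80.4, 136 and 59.04 on the tretinoin arrays. Tretinoin replicate 2 lay within the DMSO range and the other tretinoin arrays below it, and the log2 change was -0.60 with a 95% interval of -1.31 to 0.10 (adjusted p = 0.176). Without tretinoin replicate 2 SLC2A1 was called lower (log2 change -0.93, adjusted p = 0.0161), and likewise without scaling between arrays (log2 change -0.81, adjusted p = 0.0254). A second SLC2A1 probe set had overlapping arrays and a log2 change of -0.13 (adjusted p = 0.816).

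For SLC2A3, a high-affinity glucose carrier, the probe sets differed. The brightest had a log2 change of 0.24 (adjusted p = 0.396). Another read the floor, the floor and 21.5 on the DMSO arrays and 63.7, 51.8 and 58.5 on the tretinoin arrays, and was at least 2.83-fold higher (adjusted p = 0.000253). The remaining measured one had a log2 change of 0.18. With its brightest probe set standing for it, SLC2A3 was not called.

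Regions just upstream of 5 carrier genes with large changes are shown to give the sequence context of their start sites. These are the 250 bases before the first listed RefSeq start on GRCh38.p14, written 5′ to 3′ along the gene. Capitals mark a match, on either strand, to one of the motifs searched. The SLC2A5 region was chr1:9069636-9069885 (minus strand), with no match. SLC29A3 was at chr10:71319009-71319258 (plus strand), with the metal response element core TGCGCNC on the opposite strand at -161. SLC30A1 was at chr1:211579162-211579411 (minus strand), with the core TGCACNC on the opposite strand at -49. SLC27A2 was at chr15:50181946-50182195 (plus strand), with the retinoic acid receptor half-site GGGTCA on the opposite strand at -145. SLC25A15 was at chr13:40789361-40789610 (plus strand), with TGCGCNC along the gene at -239.
SLC2A5: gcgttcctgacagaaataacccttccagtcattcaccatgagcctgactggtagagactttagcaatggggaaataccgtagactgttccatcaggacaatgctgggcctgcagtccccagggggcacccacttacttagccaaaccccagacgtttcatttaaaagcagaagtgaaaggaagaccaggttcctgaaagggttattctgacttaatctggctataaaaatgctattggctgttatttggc
SLC29A3: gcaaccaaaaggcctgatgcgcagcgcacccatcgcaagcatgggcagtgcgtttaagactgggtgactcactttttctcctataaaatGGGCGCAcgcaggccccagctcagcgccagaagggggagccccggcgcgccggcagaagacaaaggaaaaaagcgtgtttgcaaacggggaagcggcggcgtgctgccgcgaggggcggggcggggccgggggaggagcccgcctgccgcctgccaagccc
SLC30A1: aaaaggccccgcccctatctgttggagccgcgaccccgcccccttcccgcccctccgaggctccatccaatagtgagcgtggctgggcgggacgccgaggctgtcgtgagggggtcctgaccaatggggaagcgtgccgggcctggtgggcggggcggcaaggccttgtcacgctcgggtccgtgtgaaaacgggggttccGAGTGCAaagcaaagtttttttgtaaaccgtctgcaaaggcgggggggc
SLC27A2: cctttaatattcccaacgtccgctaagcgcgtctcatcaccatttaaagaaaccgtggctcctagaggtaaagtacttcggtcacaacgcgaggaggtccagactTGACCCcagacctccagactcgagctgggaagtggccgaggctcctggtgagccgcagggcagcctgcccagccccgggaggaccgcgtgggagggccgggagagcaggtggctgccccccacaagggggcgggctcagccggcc
SLC25A15: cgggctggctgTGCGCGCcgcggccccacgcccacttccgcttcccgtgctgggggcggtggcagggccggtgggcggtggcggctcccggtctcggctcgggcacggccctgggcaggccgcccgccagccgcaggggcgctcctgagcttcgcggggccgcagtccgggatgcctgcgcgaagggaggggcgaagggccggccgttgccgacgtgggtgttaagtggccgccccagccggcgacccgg

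Over the same windows, matched by symbol for 170 of the 207 carriers and 29 of the 37 called ones, TGCGCNC was found in 4 of 12 higher genes, 6 of 17 lower genes and 11 of 79 genes not called, against 16.9% of all 27305 promoters. GGGTCA was found in 0, 5 and 13 of these groups against 12.2%, and AGGTCA, the other half-site, in 1, 2 and 9 against 12.1%. The other motifs were the core TGCACNC (1, 0 and 8, against 9.73%), the E-box CACGTG (0, 2 and 8, against 6.49%) and the PU.1 element GAGGAAGT (0, 0 and 1, against 2.13%). None of these 6 motifs contains another. A match describes the letters in the window and is no evidence of binding.

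The nucleoside carriers were measured in full, with 6 of 6 genes tested, 2 higher and 1 lower. SLC29A3, which lets nucleosides out of lysosomes, read 21.1, 22.1 and the floor on the DMSO arrays and 75.6, 90.6 and 84.8 on the tretinoin arrays. It was at least 3.97-fold higher (log2 change 1.99, adjusted p = 8.71e-05), and no tretinoin array was near the DMSO values. SLC28A2, a sodium-coupled carrier of purine nucleosides, rose less. It read the floor, 20.5 and 22.97 on the DMSO arrays and 37.6, 47.6 and 29.9 on the tretinoin arrays, at least 1.81-fold higher (adjusted p = 0.0142). The adjusted p was 0.0736 without scaling between arrays, 0.0642 with a floor of 10 and 0.0621 with no filter, and its other probe set was at the floor on all 6 arrays. SLC29A2, an equilibrative carrier of the cell surface that also takes nucleobases, fell. It read 41.8, 42.1 and 41.4 on the DMSO arrays and the floor, 31.4 and the floor on the tretinoin arrays, at least 1.76-fold lower (adjusted p = 0.0163). Without tretinoin replicate 1 or replicate 3 its adjusted p was 0.0564 or 0.0570. The SLC29A2 call was also lost with a floor of 10, with a floor of 40 and with no filter. The related surface carrier SLC29A1 had a log2 change of 0.13 with a 95% interval of -0.18 to 0.45.

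Of 7 carriers of peptides and lysosomal amino acids, all were tested, 2 were higher and 0 were lower. SLC15A3, which exports histidine and small peptides from lysosomes, read 23.2, the floor and the floor on the DMSO arrays and 68.1, 80.5 and 71.3 on the tretinoin arrays. It went from near the floor to a clear signal, at least 3.48-fold higher (log2 change 1.80, adjusted p = 0.000141). SLC36A1, a proton-coupled carrier of small amino acids in lysosomes, read 39.1, 69.3 and 61.03 on the DMSO arrays and 129.5, 142 and 179.6 on the tretinoin arrays. It was 2.66-fold higher (adjusted p = 0.0042). The 5 others had log2 changes of -0.27 to 0.53.

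Metal carriers moved in both directions, with 3 higher, 2 lower and 9 not called of 14 tested (20 listed). The zinc exporter SLC30A1 read 69.7, 54.5 and 84.7 on the DMSO arrays and 232, 198 and 205 on the tretinoin arrays. The lowest treated array was far above the highest untreated one, and the mean was 3.04-fold higher (log2 change 1.63, SE 0.186, adjusted p = 0.000744). SLC31A2, a copper carrier of endosomes and lysosomes, also rose. It read 30, 22.5 and 32.3 on the DMSO arrays and 76.3, 71.9 and 81.3 on the tretinoin arrays, 2.71-fold higher (adjusted p = 0.000803). SLC39A1, a zinc importer of the cell surface, was near the floor in DMSO. It read the floor, the floor and 34.4 on the DMSO arrays and 45.5, 53.3 and 56.3 on the tretinoin arrays, at least 2.09-fold higher (adjusted p = 0.0113). The SLC39A1 call was lost with a floor of 40 and with no filter on low values.

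Among the metal carriers that fell, SLC39A14, which takes up zinc, iron and manganese, had the largest fitted decrease of all tested carriers. It read 138, 147 and 138 on the DMSO arrays and the floor, 29.9 and the floor on the tretinoin arrays. The mean was at least 6.05-fold lower (log2 change -2.62, SE 0.185, adjusted p = 0.00011). SLC39A6, another zinc importer, stayed well above the floor in both conditions. It read 243, 265 and 215 on the DMSO arrays and 114, 139.9 and 134 on the tretinoin arrays, 1.86-fold lower (adjusted p = 0.00351), and its second probe set was 1.62-fold lower (adjusted p = 0.0066). The log2 change of the zinc importer SLC39A8 was -0.56 (adjusted p = 0.14), and without tretinoin replicate 1 it was called lower (adjusted p = 0.0471). SLC48A1, which carries heme out of lysosomes, had a log2 change of -0.47, below the 1.5-fold minimum (adjusted p = 0.0401).

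**Figure D2:**
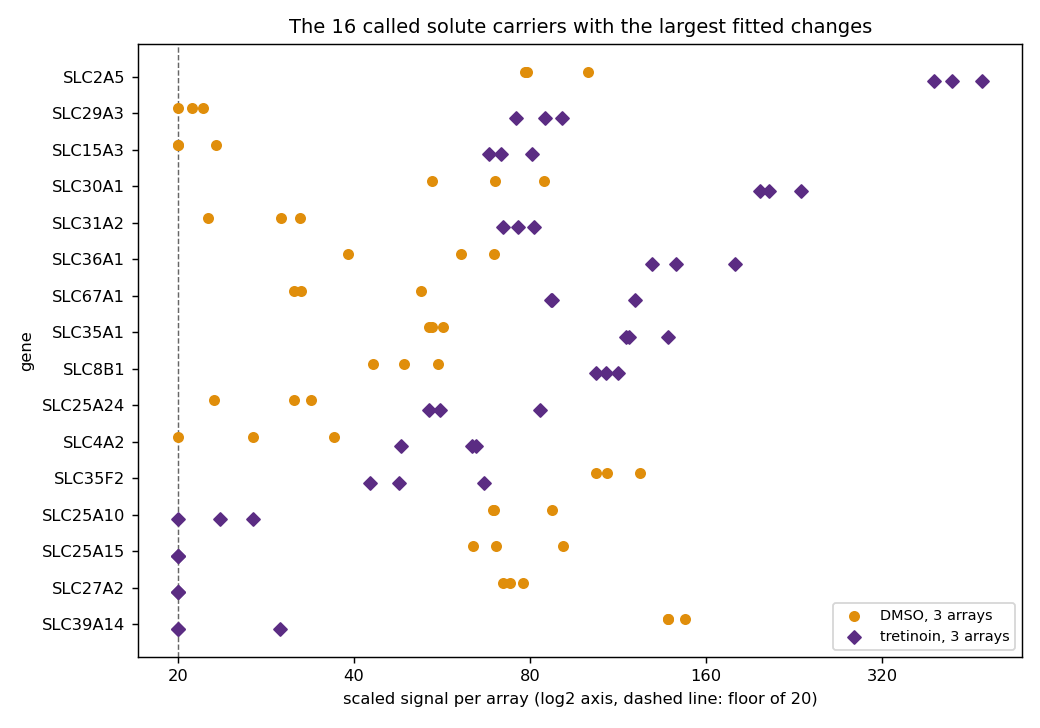
Scaled signal on a log2 axis for the 16 called solute carriers with the largest fitted changes, 1 point per array, DMSO and tretinoin in separate colours, with the floor of 20 marked. In each gene the 3 tretinoin points lie wholly above or wholly below the 3 DMSO points, as for SLC2A5 (393 to 475 against 78.6 to 100.4) and SLC39A14 (at most 29.9 against at least 138).

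Of 24 genes for chloride, bicarbonate and sulfate 10 were tested, with 1 higher and 2 lower. SLC4A2, an exchanger of chloride for bicarbonate, read 26.9, 37.02 and the floor on the DMSO arrays and 63.7, 48.1 and 64.8 on the tretinoin arrays. It was at least 2.104-fold higher (adjusted p = 0.0134). That call was lost with a floor of 10, with a floor of 40 and with no filter on low values. SLC4A7, a sodium-coupled bicarbonate carrier, fell. It read 61, 52.1 and 58 on the DMSO arrays and 27.4, 38.2 and 40.3 on the tretinoin arrays, 1.62-fold lower (adjusted p = 0.0221). Its call was lost without DMSO replicate 1 or 3 or tretinoin replicate 1 (adjusted p = 0.0698, 0.0625 and 0.0503) and with the replicate number as a block (adjusted p = 0.0525). A second SLC4A7 probe set was at least 1.645-fold lower (adjusted p = 0.0128). SLC26A2, a sulfate carrier, fell slightly more than the minimum. It read 81.6, 69.7 and 66.2 on the DMSO arrays and 50.7, 42.7 and 44.7 on the tretinoin arrays, 1.58-fold lower (adjusted p = 0.012), and without DMSO replicate 1 its log2 change of -0.57 was below the minimum. The cotransporter SLC12A2, which brings in sodium, potassium and chloride, had a log2 change of -0.28.

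Of the 6 tested carriers for sodium, proton and calcium exchange, SLC8B1 was the 1 called. This gene encodes an exchanger that releases calcium from mitochondria, although it is no SLC25 member. It read 48.7, 55.7 and 43.2 on the DMSO arrays and 108, 113 and 104 on the tretinoin arrays. The treated arrays were all above 100, 2.201-fold higher (adjusted p = 0.000994). The 5 others had log2 changes from -0.51 to -0.05.

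Among the sodium-coupled SLC5 and SLC6 families 8 of 20 genes were tested. SLC5A3 carries myo-inositol, an osmolyte and the headgroup of phosphoinositides. It read 142, 109.7 and 145 on the DMSO arrays and 222, 169 and 244 on the tretinoin arrays, 1.602-fold higher (adjusted p = 0.0333). That call was lost when any 1 array other than tretinoin replicate 2 was left out (adjusted p = 0.0547 to 0.105), without scaling between arrays (log2 change 0.47, adjusted p = 0.268) and with median scaling (adjusted p = 0.0577). A second probe set of the gene separated the conditions more widely. It read 106, 119 and 96.5 on the DMSO arrays and 226, 242 and 242 on the tretinoin arrays, 2.21-fold higher (adjusted p = 0.000761), and another, near the floor, had a log2 change of 0.02. SLC5A6, which takes up biotin and pantothenate, read 83.6, 121 and 119.5 on the DMSO arrays and 60.5, 35.3 and 62.4 on the tretinoin arrays. It was 2.05-fold lower (adjusted p = 0.0211), with an adjusted p of 0.0686 without DMSO replicate 2 and 0.0679 without DMSO replicate 3.

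Vitamin carriers were lower where they were called, with 0 higher and 2 lower of 5 tested. SLC19A1, the reduced folate carrier, read 163, 193 and 212 on the DMSO arrays and 119, 87.8 and 109 on the tretinoin arrays. It was 1.79-fold lower (log2 change -0.84, adjusted p = 0.00893). Its probe sets differed. One was at least 1.53-fold lower, falling to the floor on the 3 tretinoin arrays (adjusted p = 0.00701). That probe set passed the filter through the DMSO arrays alone. Another read 22.7, 24.1 and 90.3 on the DMSO arrays and 39.7, 51.8 and 58.5 on the tretinoin arrays, with a log2 change of 0.43 (adjusted p = 0.593) and DMSO replicate 3 far above the other DMSO arrays. SLC19A2, a thiamine carrier, read 47.8, 55.2 and 48.2 on the DMSO arrays and 28.6, 36.7 and 28.4 on the tretinoin arrays. It was 1.61-fold lower (adjusted p = 0.0124). The SLC19A2 call was lost with a floor of 40 and with 16 added to the signals in place of the floor. The riboflavin carrier SLC52A2 had a log2 change of -0.83 and missed the threshold (adjusted p = 0.0518), which it passed under 10 of 22 alternatives, among them each other scaling and without tretinoin replicate 1 (adjusted p = 0.0252).

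**Figure D3:**
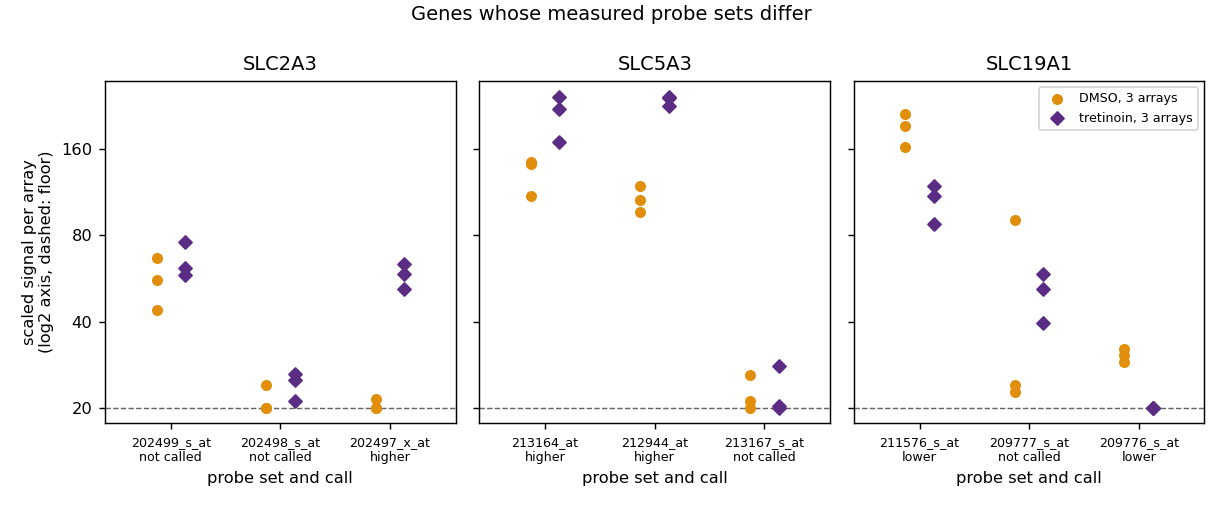
Scaled signal per array for the measured probe sets of SLC2A3, SLC5A3 and SLC19A1, labelled with probe set and call. In these 3 genes a probe set was called and another was opposite or changed by under 0.2 on the log2 scale. For SLC2A3 the probe set that was called higher (51.8 to 63.7 with tretinoin) is not the brightest one, and for SLC19A1 1 probe set has a single high DMSO array of 90.3.

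Fatty acid, acetyl-CoA and choline carriers were measured in 4 of 7 genes, and 2 fell. SLC27A2, which takes up very long-chain fatty acids and activates them, read 71.8, 77.9 and 73.9 on the DMSO arrays and at the floor on all 3 tretinoin arrays. This was at least 3.73-fold lower (log2 change -1.90, adjusted p = 6.65e-05), and its second probe set fell at least 2.95-fold (adjusted p = 0.0003). Both probe sets passed the filter through the DMSO arrays alone, so these p-values take no spread from the floored tretinoin arrays. SLC33A1, which brings acetyl-CoA into the endoplasmic reticulum, read 57.9, 79.9 and 60.7 on the DMSO arrays and 46.2, 32.9 and 46.2 on the tretinoin arrays. It was 1.59-fold lower (adjusted p = 0.0407), and the adjusted p was 0.0565 to 0.116 with any 1 array left out. The call was also lost with the replicate number as a block (adjusted p = 0.1004), median scaling (0.0812), quantile normalization (0.0690) and a trend in the fit (0.0501).

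Of 3 tested genes grouped by family number as monocarboxylate carriers, SLC16A7, which takes up pyruvate and lactate, fell. It read 78.6, 79.2 and 121 on the DMSO arrays and 47.6, 40.5 and 58.7 on the tretinoin arrays, 1.901-fold lower (adjusted p = 0.0198). Without tretinoin replicate 1 or 2 the adjusted p was 0.0583 or 0.0545. A second SLC16A7 probe set was not called, with overlapping arrays (log2 change -0.55, adjusted p = 0.204). SLC16A5 was not called by its brightest probe set (log2 change 0.46, adjusted p = 0.121), while another near the floor was at least 1.56-fold higher (adjusted p = 0.0202). The latter was at the floor on each DMSO array and passed the filter through the tretinoin arrays alone. Among 9 tested genes grouped by family number as phosphate and sugar phosphate carriers, SLC17A9, which loads nucleotides into vesicles, was the 1 called. It read 121, 90.96 and 129 on the DMSO arrays and 50.3, 55.6 and 52.4 on the tretinoin arrays, and the mean was 2.16-fold lower (adjusted p = 0.00256). The phosphate importer SLC20A1 had a log2 change of 0.33. Of 7 tested carriers of organic ions and bile acids, SLC22A4, which takes up ergothioneine and organic cations, fell. It read 50.4, 42.3 and 55.6 on the DMSO arrays and 28.97, 30.7 and 24.8 on the tretinoin arrays, 1.76-fold lower (adjusted p = 0.00764). The SLC22A4 call was lost with a floor of 40 and with 16 added to the signals in place of the floor.

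Nucleotide sugar carriers supply the Golgi apparatus with donors for glycosylation and belong to the SLC35 family. That family, like most here, was grouped by its number and not by each member's substrate. It was tested in 13 of 15 genes, with 1 higher, 2 lower and 10 not called. SLC35A1, which carries CMP-sialic acid, read 53.8, 54.5 and 56.7 on the DMSO arrays and 118, 117 and 138 on the tretinoin arrays. Each tretinoin array was above 116 and each DMSO array below 57, a rise of 2.26-fold (log2 change 1.17, adjusted p = 0.000585). SLC35F2 fell. It read 104, 123 and 108 on the DMSO arrays and 42.6, 66.8 and 47.8 on the tretinoin arrays, 2.13-fold lower (adjusted p = 0.00458). SLC35C1, which carries GDP-fucose, read 63.5, 63.7 and 66.5 on the DMSO arrays and 33.4, 49.8 and 41.4 on the tretinoin arrays. It was 1.56-fold lower (adjusted p = 0.0235), and that call was lost when any 1 array other than tretinoin replicate 2 was left out (adjusted p = 0.0600 to 0.0676).

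Families numbered recently (SLC49, SLC61, SLC67, SLC68 and SLC75) gave 1 higher and 1 lower gene of 5 tested. SLC67A1, once named SLC22A18, read 31.6, 32.5 and 52.01 on the DMSO arrays and 87.2, 121 and 86.7 on the tretinoin arrays. It was 2.54-fold higher (adjusted p = 0.00496). SLC75A1, once named MFSD10, read 175, 151 and 177 on the DMSO arrays and 92.8, 94.5 and 84.5 on the tretinoin arrays. This one was 1.85-fold lower (adjusted p = 0.00229). Of 4 tested genes with an SLC symbol that do not encode carriers, SLC2A4RG, a DNA-binding regulator of SLC2A4, fell. It read 76.5, 96.7 and 83.5 on the DMSO arrays and 36.8, 60.6 and 32.1 on the tretinoin arrays, 1.98-fold lower (adjusted p = 0.018), with an adjusted p of 0.0610 without DMSO replicate 2, 0.0610 without tretinoin replicate 1 and 0.0554 without tretinoin replicate 3.

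The mitochondrial SLC25 family was measured in 23 of 28 genes, of which 2 were higher, 5 lower and 16 not called. The share called was 30.4%, against 27.5% of the 109 other carriers tested and 27.8% of all genes. Their median log2 change was -0.12, against -0.05 in the other carriers. The difference between SLC25 and the other carriers was not tested.

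SLC25A15, which brings ornithine into mitochondria for the urea cycle and related reactions, read 91, 70.04 and 63.8 on the DMSO arrays and at the floor on all 3 tretinoin arrays. This was at least 3.75-fold lower (log2 change -1.89, SE 0.161, adjusted p = 0.000223). SLC25A15 passed the filter through the DMSO arrays alone. SLC25A10, the dicarboxylate carrier that exchanges malate and succinate for phosphate, fell nearly to the floor. It read 87.2, 69.1 and 69.4 on the DMSO arrays and the floor, 26.9 and 23.6 on the tretinoin arrays, at least 3.21-fold lower (adjusted p = 0.000417). SLC25A37 (mitoferrin 1) supplies iron for heme and iron-sulfur clusters. It read 137, 144 and 157 on the DMSO arrays and 67.3, 79.8 and 60.6 on the tretinoin arrays, 2.11-fold lower (adjusted p = 0.00165), and its second probe set was 2.49-fold lower (adjusted p = 0.000511). SLC25A1, which exports citrate for fatty acid synthesis, stayed detected in both conditions. It read 154, 142 and 144 on the DMSO arrays and 67.7, 86.1 and 86.6 on the tretinoin arrays, 1.83-fold lower (adjusted p = 0.00368). The 5th to fall was SLC25A32, a carrier of folate, named here after its values were seen. It read 86.5, 87.5 and 86.3 on the DMSO arrays and 51.5, 37.1 and 63.6 on the tretinoin arrays, 1.71-fold lower (adjusted p = 0.0217). Its call was lost without any 1 DMSO array or tretinoin replicate 1 (adjusted p = 0.0543 to 0.0617).

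SLC25A24, which exchanges ATP-magnesium for phosphate, was one of the pair that rose. It read 31.6, 33.7 and 23.1 on the DMSO arrays and 56.03, 83.3 and 53.7 on the tretinoin arrays, 2.18-fold higher (adjusted p = 0.00925). The SLC25A24 call was lost with no filter on low values. SLC25A20, which brings acylcarnitines in for fatty acid oxidation, was the other. It read 101, 94.5 and 110 on the DMSO arrays and 159, 167 and 187 on the tretinoin arrays, 1.68-fold higher (adjusted p = 0.00508), and without scaling between arrays its adjusted p was 0.149.

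Of the carriers that were not called, SLC25A3, SLC25A5 and SLC25A16 were picked by the signal of their probe sets. Probe sets bind with different strength, so this order of signal is no order of RNA levels. SLC25A3, the mitochondrial phosphate carrier, read 1626, 1640 and 1824 on the DMSO arrays and 1619.8, 1667 and 1607 on the tretinoin arrays. The arrays overlapped, and the log2 change was -0.05 with a 95% interval of -0.34 to 0.23. SLC25A5, an exchanger of ADP for ATP, read 1648, 1622 and 1705 on the DMSO arrays and 2093, 1939 and 2297 on the tretinoin arrays. The tretinoin arrays lay above the DMSO arrays, but the 1.27-fold difference missed the threshold (adjusted p = 0.077). SLC25A16, linked to coenzyme A in mitochondria, read 242, 650.4 and 548 on the DMSO arrays and 582, 728 and 608 on the tretinoin arrays. These values come from 1 of its 3 probe sets, and the others averaged 22.05 and 20 in DMSO and 21.15 and 20 in tretinoin, at or near the floor. DMSO replicate 1 lay far below the other arrays, and the 95% interval of the log2 change was -0.32 to 1.38. SLC25A36, which carries pyrimidine nucleotides, had a log2 change of -0.40, below the 1.5-fold minimum (adjusted p = 0.0308). SLC25A17 was not called by its brightest probe set (log2 change -0.39, adjusted p = 0.143). Its other probe set was at least 1.81-fold lower, at the floor on the 3 tretinoin arrays (adjusted p = 0.00193). That one passed the filter through the DMSO arrays alone.

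**Figure D4:**
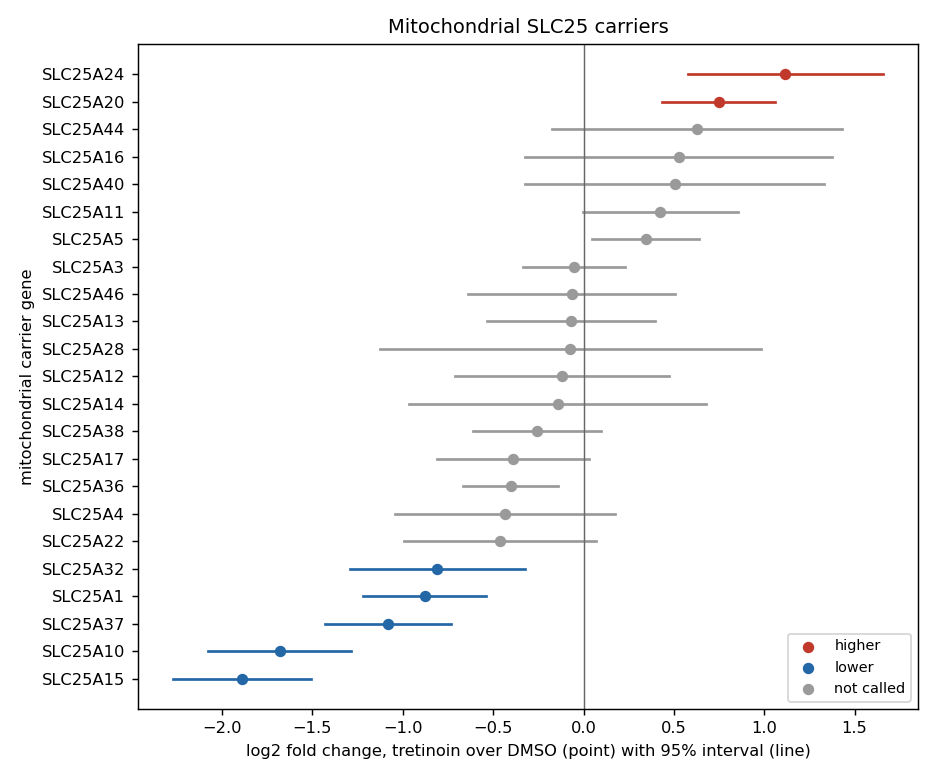
Log2 change with tretinoin (point) and its 95% interval (bar) for the 23 tested SLC25 genes, coloured by whether they were called. The 5 lower genes run from SLC25A15 (-1.89) to SLC25A32 (-0.81), the 2 higher ones are SLC25A20 (0.75) and SLC25A24 (1.12), and the 16 others lie between -0.46 and 0.63.

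Among carriers with more than 1 measured probe set (28 genes), 22 had the same sign of the fitted change in each of them. A probe set was called in 11 of these genes, and each measured probe set was called in 5. Counted by probe set, 19 were higher and 28 lower of 170 tested, against 13.6% and 13.8% of all 13374 probe sets tested.

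Genes that work beside the carriers were listed as well, 47 in all, of which 37 were named on the array and 35 tested. MFSD10, listed among the 47, is the earlier name of SLC75A1, which was counted with the carriers instead. Of the 35 tested, 7 were higher, 7 lower and 21 not called, beside 13.5% higher and 14.3% lower over all genes tested. In the list for glucose trapping and its control 3 of 4 were higher. TXNIP, which removes glucose carriers from the surface, read 132, 149.6 and 155 on the DMSO arrays and 1009, 1144 and 1023 on the tretinoin arrays. It was 7.29-fold higher (adjusted p = 2.15e-05). HK3, a hexokinase of white blood cells, was at the floor on all 3 DMSO arrays and 87.1, 96.2 and 79.1 on the tretinoin arrays. This was at least 4.37-fold higher (adjusted p = 6.51e-05). HK3 passed the filter through the tretinoin arrays alone. HK1, which phosphorylates glucose in most cells, was 2.33-fold higher (adjusted p = 0.000472), and HK2 had a log2 change of -0.14. The zinc-sensing factor MTF1, which switches on SLC30A1 and metallothionein genes when zinc is high, read 88.3, 89.6 and 105 on the DMSO arrays and 149.9, 192 and 175 on the tretinoin arrays. It was 1.83-fold higher (adjusted p = 0.00455), and without scaling between arrays its adjusted p was 0.0681.

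Of the kinases and partners of ion carriers, WNK1 was 2.13-fold higher (adjusted p = 0.000557) and CHP1, a partner of sodium-proton exchangers, was 2.05-fold higher (adjusted p = 0.00251). STK39, a kinase that acts below WNK1 on chloride cotransporters, moved the other way, at least 2.35-fold lower (adjusted p = 0.00259), and OXSR1, its close relative, had a log2 change of -0.03. The sodium pump subunit ATP1B3 was 1.96-fold lower (adjusted p = 0.00156). Its relative ATP1B1 was at the floor on each DMSO array and read 26.6, 31.4 and 31 on the tretinoin arrays. The ATP1B1 log2 change of 0.56 was below the 1.5-fold minimum (adjusted p = 0.0133). ATP1B2 had overlapping arrays and a log2 change of -0.39 (adjusted p = 0.498). VDAC1 and VDAC2, channels of the outer mitochondrial membrane, were 1.999-fold and 1.56-fold lower (adjusted p = 0.001 and 0.0058). VDAC3 had a log2 change of -0.49, below the 1.5-fold minimum (adjusted p = 0.0217), and the pyruvate carrier subunits MPC1 and MPC2 had -0.15 and 0.32.

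Of 10 tested carriers with other names, NPC1, which moves cholesterol out of lysosomes, was 1.55-fold higher (adjusted p = 0.0208, and 0.0617, 0.0713 and 0.0512 without DMSO replicate 2, tretinoin replicate 1 and tretinoin replicate 2, and 0.248 with a log2 change of 0.44 without scaling), and SLCO4A1, a carrier of organic anions, was 2.91-fold lower (adjusted p = 0.00258). Of 7 tested enzymes that use the carried cofactors and bases, ADK, which phosphorylates adenosine, was 2.41-fold lower (adjusted p = 0.000302), and the thymidine kinase TK1 was 1.604-fold lower (adjusted p = 0.0493). The TK1 call was lost without DMSO replicate 1 or 3 or tretinoin replicate 1 or 3 (adjusted p = 0.117 to 0.143) and with the replicate number as a block (adjusted p = 0.112). The chaperone BSG of monocarboxylate carriers had a log2 change of -0.12.

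**Figure D5:**
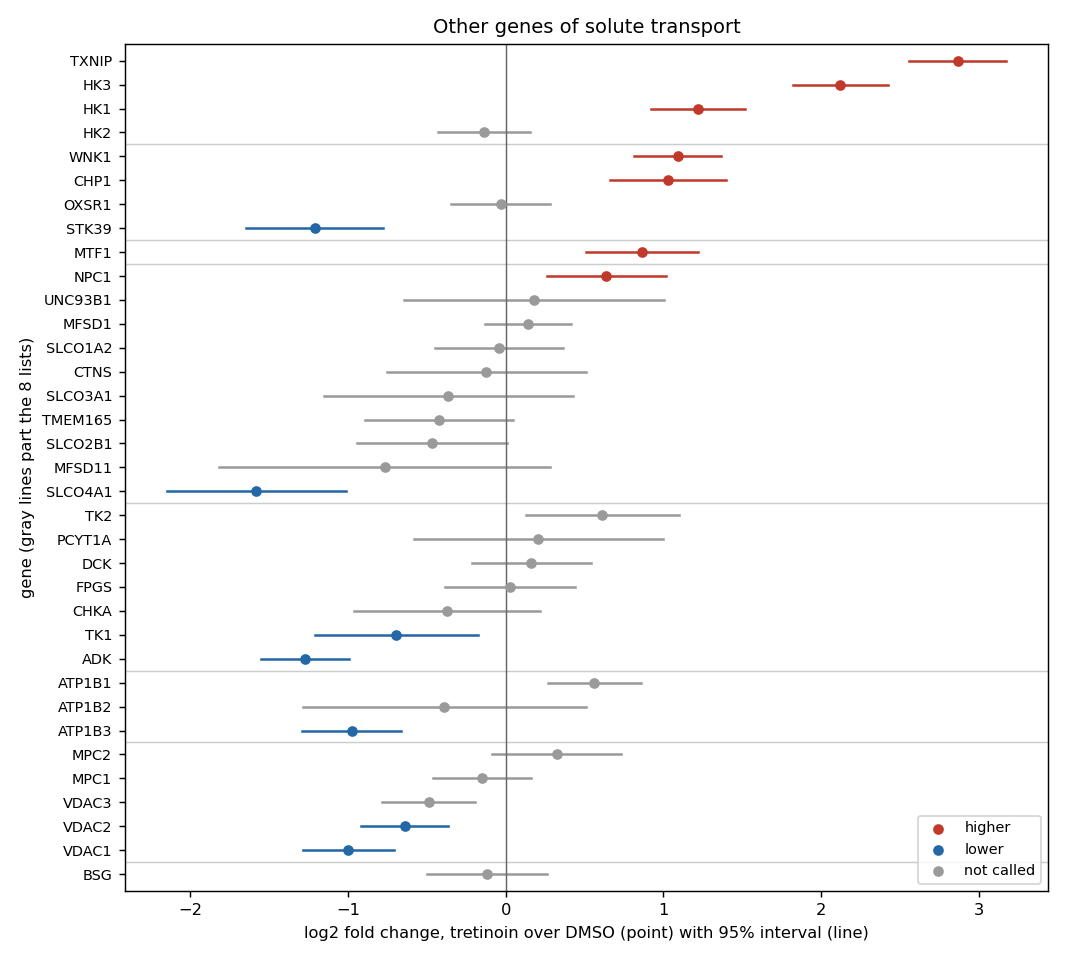
Log2 change with tretinoin (point) and 95% interval (bar) for the 35 tested genes of 8 lists that work with solute carriers, from 3 DMSO and 3 tretinoin arrays. TXNIP and HK3 show the largest rises (7.29-fold and at least 4.37-fold) and SLCO4A1 the largest fall (2.91-fold).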

How the data were processed

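HL60 RNA was hybridized to 6 HG-U133A arrays, 3 per condition. The values deposited by the authors were linear signal intensities from MAS5, not scaled between arrays. Following the study's methods, each array was scaled to equal mean signal (here that of DMSO replicate 1) and values below 20 were set to 20. The log2 signals of the 13374 probe sets that exceeded 20 on 3 or more arrays entered 1 linear model without covariates (lmFit and eBayes of limma 3.58.1 in R 4.3.3), and p-values were adjusted over these probe sets (Benjamini-Hochberg). Genes were called where the fitted change reached 1.5-fold and the adjusted p was under 0.05. Where all 3 arrays of a condition were at the floor, a probe set passed the filter through the other condition alone. Its p-value then takes no spread from the floored arrays. The fit was run on simulated data in which only probe sets well above the floor were changed, so that run does not bear on calls near the floor. Of 22283 probe sets 19071 carried 1 gene symbol, 1043 several and 2169 none; only the first were named. A gene was represented by its probe set with the highest mean log2 signal. Folds are ratios of condition means, and lower bounds where an array of a condition was at the floor. Signals of different probe sets were ranked to pick the one that stands for a gene and the uncalled genes to name, and were not otherwise set against each other. The number of arrays limits the precision, and with 3 against 3 an exact permutation test of a single gene could not go below p = 0.1.

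Named were, in each family, up to 4 called genes per direction with the largest changes, called genes with an array at the floor, genes whose probe sets differed (1 called, another opposite or changed by under 0.2 on the log2 scale), the 3 brightest genes not called, and the called partner genes. Other uncalled carriers were picked after their values were seen. The members and lists were chosen with earlier results of these data known, and the recently numbered families and 3 genes that are not carriers were placed after the array annotation was read. Promoters came from RefSeq (GRCh38.p14). Alternatives changed the scaling, the floor, the filter, the fold minimum, the fit, the probe set rule and the arrays included.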

Additional observations from a re-analysis of the deposited data

How the results depend on the processing

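Under 22 alternatives no named call turned direction. Of 36 called carriers named by the rule, 16 kept their call under each alternative that tested them. The other 20 lost it under 1 or more, 5 of them under more than 5. For SLC25A1, SLC39A6 and SLC75A1 that was the fold minimum of 2 alone. SLC25A32, named outside the rule, lost its call under 6 alternatives. SLC33A1, SLC5A3, SLC35C1 and SLC4A7 were among the least stable. With no filter on low values the carriers called lower went from 22 to 14. A fold minimum of 2 left 9 lower carriers, 3 lower SLC25 genes and 3 lower partner genes, against 22, 5 and 7. SLC25 genes called higher went from 2 to 1 without scaling, with no filter and with a fold minimum of 2. Leaving out 1 array at a time gave 14 to 17 higher and 15 to 25 lower carriers, 2 to 3 higher and 3 to 5 lower SLC25 genes, and 5 to 8 higher and 6 to 7 lower partner genes. The 3 lower SLC25 genes were found without DMSO replicate 1 and without DMSO replicate 2. With 1 DMSO array left out SLC25A15 and SLC27A2, which exceeded the floor on the 3 DMSO arrays alone, no longer met the filter and were not tested, and the same held for HK3 with 1 tretinoin array left out. Of the 14 called partner genes 6 lost their call under 1 or more alternatives. Without scaling the median log2 change of all genes moved by -0.18. With the mean of all probe sets of a gene, SLC2A3 was called higher (log2 change 0.64) and SLC19A1 was not called lower (-0.34). Same-numbered arrays deviated together weakly or not at all (correlations of -0.03, -0.01 and 0.07), so that the numbers did not pair the samples. A replicate block gave 15 higher and 21 lower carriers, 2 and 5 SLC25 genes and 7 and 6 partner genes, and kept 15 and 20 of the carrier calls.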

Other observations

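Another 9 probe sets named a solute carrier together with a further gene and were left out of the counts, since their signal cannot be given to either gene. Of these 7 were tested, 0 were higher and 1 was lower. The lower one is shared by SLC35F6 and CENPA, a centromere histone, with mean signals of 71.1 in DMSO and 34.8 in tretinoin (2.04-fold, adjusted p = 0.00235 by limma). Of a pair shared by SLC2A3 and SLC2A14, one went from 57.2 to 77.8 (adjusted p = 0.0835) and the other from 74.1 to 70.8 (adjusted p = 0.846). The tested probe set of SLC35E2B and SLC35E2A went from 162 to 208 (adjusted p = 0.0908).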
